A study of Mus musculus with 50 samples.

Results

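The net change that 24 hours of activation made in the mRNA of wild-type (WT) CD8+ T cells was measured in 10 of the study's 50 libraries. They are the 0h and the 24h library of each of 5 WT mice, joined by mouse number. Of 22 listed genes for secreted cytokines 15 passed the low-count filter and were tested, and 9 of them rose and 0 fell. Of 11 listed chemokine genes 9 were tested, and 7 rose and 0 fell. Members nearly absent at 0h, such as Il2, Il3 and Ccl1, passed the filter only through the 24h libraries and could only rise. The counts of both lists are in part set by that. Among 33 costimulatory and inhibitory receptors 13 rose and 1 fell, and among 29 genes of sterol and fatty acid synthesis 14 rose and 1 fell. Of 28 genes of the naive state 9 fell and 0 rose. These counts stand beside 3.71% of all 11874 tested genes that rose and 3.66% that fell. None of 42 replication genes and none of 32 genes of G2 and mitosis passed the test with all 5 mice. The 0h libraries of mice 1 and 4 already carried these transcripts at high levels.

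A naive CD8+ T cell is a small resting cell that recirculates between blood and lymphoid organs. When its T cell receptor and the receptor CD28 are engaged together, it leaves quiescence, secretes cytokines, builds up ribosomes, lipids and nucleotides, begins to divide and takes on the cytotoxic programme of an effector cell. Transcription factors that hold the naive state are lost on the way.

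Cells came from spleens of 10-week-old mice whose background the label spells C567BL/6J, and were picked with magnetic anti-CD8a beads. Such beads hold back any cell that displays CD8a, which includes immature thymocytes with both CD4 and CD8 and some dendritic cells. The 0h cells are labelled as naive, and the 24h cells had been cultured on plate-bound anti-CD3e with anti-CD28 in solution. The 5 knockout mice (KO) of the same background were handled alike, and their 10 libraries of 0h and 24h are used here only to test whether the net change differed by genotype. Each mouse gave 1 library at each time, so the tests measure the spread between mice, and the time in culture and the stimulus cannot be told apart. The 10 WT libraries held 13261005 to 30673318 counted reads. Levels are given as CPM, read counts scaled to a common library size with TMM factors, and 5 values in a row are those of mice 1 to 5. Changes are log2 changes of 24h against 0h from edgeR's quasi-likelihood test with mouse as a block, with standard error (SE) and Benjamini-Hochberg adjusted p, and a gene is said to rise or fall when that p was under 0.05.

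The 0h libraries were not alike. Rag1, part of the enzyme that cuts the T cell receptor genes in thymocytes, was at 406, 0.162, 0.289, 286 and 0.117 CPM at 0h and at 73.1, 0.102, 0.0438, 14.1 and 0 CPM at 24h. Ptcra, the stand-in alpha chain of immature thymocytes, was at 144, 0.097, 0.771, 107 and 0.0778 CPM at 0h. Both transcripts were thus high in mice 1 and 4 and near 0 in the others. Before culture the 11 immature thymocyte markers, 10 of them detected in all 5 libraries, had summed levels of 2741, 869, 353, 2201 and 941 CPM, and after it of 761, 298, 301, 355 and 297 CPM. The 9 markers of mature CD8 T cells were detected in each of the 10 libraries, with summed levels of 2128, 7585, 17628, 3027 and 8082 CPM before and 1789, 1969, 1983, 1791 and 2009.8 CPM after culture, lowest in mouse 1 at 0h. Mouse 3 stood apart in another way at 0h: its 34 ribosomal protein transcripts summed to 107721 CPM, against 17006 to 21855 CPM in the other 4 mice, and Ighg2b, an immunoglobulin heavy chain, was at 8418 CPM, against 67.3 to 368 CPM. The part of these library differences in the results was not tested. Results are given with and without mice 1 and 4, the mice with a thymocyte-like and cycling profile, and the totals and the ribosomal proteins also without mice 1, 3 and 4. Because cycling was among the reasons to leave out mice 1 and 4, values of cell cycle genes without them restate that choice in part and are given as a description. The same holds for genes of naive or mature T cells and of nucleotide synthesis whose 0h levels set these mice apart. In bulk RNA, fewer cells of a type and less RNA per cell cannot be told apart.

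The mice were more alike after the 24 hours. The standard deviation of log2 CPM between the 5 mice had a median over genes of 0.736 at 0h and 0.261 at 24h, and it was larger at 0h for 10282 of 11874 genes (86.6%). Across genes, which are not independent replicates, Pearson's r between the libraries of a pair of mice lay between 0.708 and 0.991 before culture, and between 0.905 and 0.995 after it, as a description over 10 pairs at each time. At 0h r was 0.979 for mice 1 and 4 and 0.991 for mice 2 and 5.

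**Figure D1:**
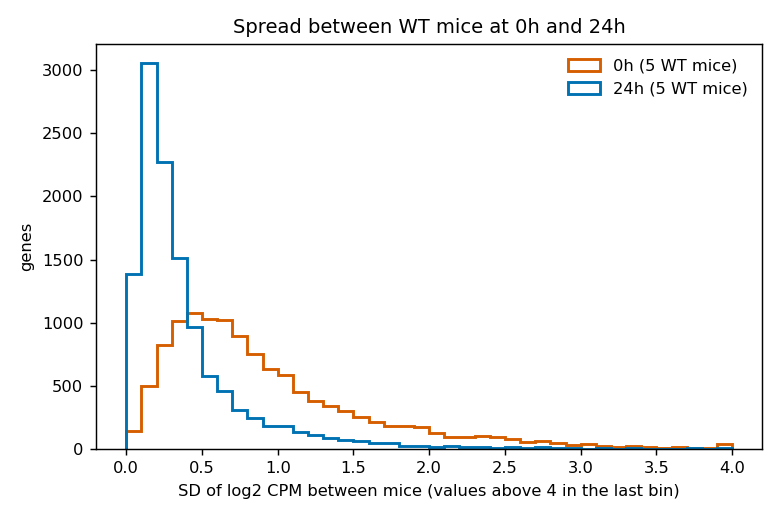
Number of genes (y axis) by the standard deviation of their log2 CPM between the 5 WT mice (x axis), for the 0h and the 24h libraries, over 11874 tested genes. The 24h curve lies to the left of the 0h curve, with medians of 0.261 and 0.736.

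With all 5 mice, 441 genes rose and 434 fell, and 304 and 274 of them changed by at least 4-fold. The median log2 change was 2.80 among the genes that rose, -2.41 among those that fell and 0.00 over all tested genes. The 441 that rose were higher at 24h in each of the 5 mice, and 430 of the 434 that fell were lower in each. By direction alone, 1743 of 11874 genes (14.7%) were higher at 24h in all 5 mice and 1633 (13.8%) lower in all 5. Every 24h library lay above every 0h library for 1117 genes (9.41%) and below for 884 genes (7.44%). Without mice 1 and 4, 1841 genes rose (15.5% of 11860) and 1844 fell (15.5%). Counts of list members below stand beside 3.71% that rose and 3.66% that fell with 5 mice, and 15.5% each way without mice 1 and 4. Without mice 1, 3 and 4, which leaves 2 mice and 1 residual degree of freedom, the totals were 5166 (42.3% of 12210) and 5191 (42.5%). Of the 441 and 434 genes called with 5 mice, 395 (89.6%) and 384 (88.5%) were also called without mice 1 and 4, which is 21.5% and 20.8% of the longer lists, and 0 were called in opposite directions. Leaving out mouse 1, 2, 3, 4 or 5 alone gave 2651, 232, 603, 180 and 211 called genes in place of 875.

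Secreted cytokines were the first group. Il2 (chr3:37120713-37125954 in GRCm38.p6), the growth factor of activated T cells, was at 0.0683, 0.129, 0.0963, 0.0358 and 0.0389 CPM at 0h and at 17.3, 19.2, 25.8, 62.6 and 28 CPM at 24h. Each 24h library lay far above each 0h library, with mouse 4 highest. Its log2 change was 8.41 (SE 0.60, edgeR adjusted p = 0.00136), and 7.86 without mice 1 and 4. Ifng (chr10:118441046-118445894), the interferon that arms macrophages and raises antigen presentation, was at 0.205, 1.49, 1.73, 0.43 and 2.37 CPM and then at 112, 366, 421, 455 and 431 CPM, lowest in mouse 1 at both times, a log2 change of 8.32 (SE 0.552, edgeR adjusted p = 0.00122). Lta, the secreted lymphotoxin, went from 1.3, 17.8, 23.9, 3.29 and 14.3 to 30.2, 392, 322, 186 and 323 CPM, a log2 change of 4.51 (SE 0.38, edgeR adjusted p = 0.00214), again with the lowest level in mouse 1. Tnf, the inflammatory cytokine of the same family, rose by 3.72 and Tnfsf14 (LIGHT), a costimulatory ligand, by 3.51. Lif rose by 8.72, Csf2, the myeloid growth factor GM-CSF, by 7.28 and Spp1 (osteopontin) by 4.23.

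Il3, a growth factor of blood-forming cells, had 0 counts in all 5 libraries at 0h and 2.04, 3.21, 4.24, 5.39 and 5.53 CPM at 24h. Set against 3 counts over the whole 0h group, its level at 24h was at least 167-fold higher, and it passed the test (edgeR adjusted p = 0.0393). Absent at 0h, it passed the low-count filter through the 24h libraries alone and could only rise. The median log2 change of the 15 cytokine genes was 4.23, and it was the same with Il3 at its bound. Within single mice that median was 4.04, 3.76, 3.75, 4.72 and 3.62, so the 5 mice were alike in it. Leaving out mouse 1, 2, 3, 4 or 5 left 11, 7, 7, 7 and 7 genes that rose, and without mice 1 and 4 there were 11 that rose and 1 that fell. Calls lost in these fits were those of Il3 and Spp1 without mouse 2, 3, 4 or 5, and the change of Spp1 was 3.90 to 4.98 in them. The 1 that fell was Ltb, the membrane anchor of lymphotoxin, at 27.5, 629, 1966, 124 and 570.3 CPM at 0h and 101, 198, 161, 107 and 157 CPM at 24h. It was lower at 24h in 4 of the mice and higher in mouse 1, with a log2 change of -1.26 that did not pass with 5 mice (edgeR adjusted p = 0.338) and of -2.49 that passed without mice 1 and 4 (edgeR adjusted p = 0.040).

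The stretch before the Il2 start site is shown because calcium signals from the T cell receptor act on this gene through NFAT factors, whose core motif is GGAAAA. Capitals mark the matches on either strand, and the sequence is RefSeq's for GRCm38.p6 at chr3:37125955-37126141 (minus strand).
Il2: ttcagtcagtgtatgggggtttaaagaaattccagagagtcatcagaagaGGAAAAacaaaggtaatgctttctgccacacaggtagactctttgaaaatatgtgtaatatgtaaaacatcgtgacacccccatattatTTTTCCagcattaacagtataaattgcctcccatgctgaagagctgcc
Of 20 cytokine genes with a promoter entry, 7 (35.0%) held GGAAAA on either strand within 250 bases before the start, against 22.9% of all 27025 genes with an entry. A match is a description of the letters and not a bound site.

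Among chemokines, the attractants that activated CD8 T cells release, 7 of 9 rose. Xcl1, which draws cross-presenting dendritic cells, was at 0.205, 1.36, 8.38, 0.537 and 2.88 CPM at 0h and at 365, 717, 1041, 689 and 1110.4 CPM at 24h, a log2 change of 8.98 (SE 0.787, edgeR adjusted p = 0.0025). Ccl3, an inflammatory chemokine, was at 0.205, 1.68, 3.08, 0.394 and 3.81 CPM and then at 129, 787, 959.9, 499 and 1039 CPM, a log2 change of 8.81 (SE 0.515, edgeR adjusted p = 0.00108). For both genes no 24h library overlapped a 0h library, and mouse 1 was lowest at 24h. Ccl4 rose by 8.51, Ccl9 by 6.05, Ccl22 by 6.47 and Cxcl9 by 6.14.

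Ccl1 had 0 counts in all 5 libraries at 0h and 16.5, 12.3, 17.7, 20.8 and 22.6 CPM at 24h, at least 731-fold higher than 3 counts over the 0h group (edgeR adjusted p = 0.0219). Like Il3, it passed the low-count filter through the 24h libraries alone and could only rise. The chemokine median was 6.47, also with Ccl1 at its bound, and 6.53, 5.82, 5.71, 6.51 and 6.93 in mice 1 to 5. Without mouse 3 or mouse 4 alone 6 genes rose in place of 7, Ccl1 being lost without mouse 3 and Cxcl9 without mouse 4 (changes of 5.81 to 7.04 over the fits without 1 mouse). Ccl5, which memory-type and effector cells store, was at 6.01, 105, 476, 28.9 and 135 CPM at 0h and 12.8, 11.9, 9.67, 11.4 and 16.4 CPM at 24h. Its change of -2.57 did not pass with 5 mice (edgeR adjusted p = 0.148), and without mice 1 and 4 it fell, with a change of -4.01 (edgeR adjusted p = 0.0297).

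In the cytotoxic granule list 3 of 15 tested genes rose and 0 fell, and each fit without 1 mouse also had those 3 that rose. Gzmb (chr14:56258836-56262334), granzyme B, was at 0.41, 10.2, 4.05, 1.61 and 6.84 CPM at 0h and at 183, 1884, 1511, 1663 and 1709 CPM at 24h. Mouse 1 was far below the others at 24h, and its 0h level was the lowest too. The change was 8.45 (SE 0.559, edgeR adjusted p = 0.00122). Serpinb9, the inhibitor that shields killer cells from their own granzyme B, was at 10.1, 24.6, 15, 12 and 28.9 CPM and then at 155, 291, 305, 429 and 328 CPM, a change of 4.01 (SE 0.342, edgeR adjusted p = 0.0022). Serpinb6b, a related inhibitor with close paralogs whose reads may be split between them, rose by 2.90.

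Gzma, granzyme A, was at 651, 26.6, 64.3, 533 and 15.2 CPM at 0h and at 383, 1.05, 0.70, 160.2 and 0.663 CPM at 24h, highest in mice 1 and 4 at both times and lower at 24h in each of the 5 mice. Its change was -3.68 with 5 mice (edgeR adjusted p = 0.0733, not passing) and -5.33 without mice 1 and 4 (edgeR adjusted p = 0.0135). Gzmm, granzyme M, had a change of -2.66 with 5 mice that did not pass (edgeR adjusted p = 0.0817) and fell without mice 1 and 4, with a change of -3.82 (edgeR adjusted p = 0.0251). Without mouse 1 alone 4 granule genes fell, and without mice 1 and 4 there were 3 that fell beside 3 that rose, of 16 tested. Both of the latter counts are near the 15.5% of all genes that moved each way in that fit.

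**Figure D2:**
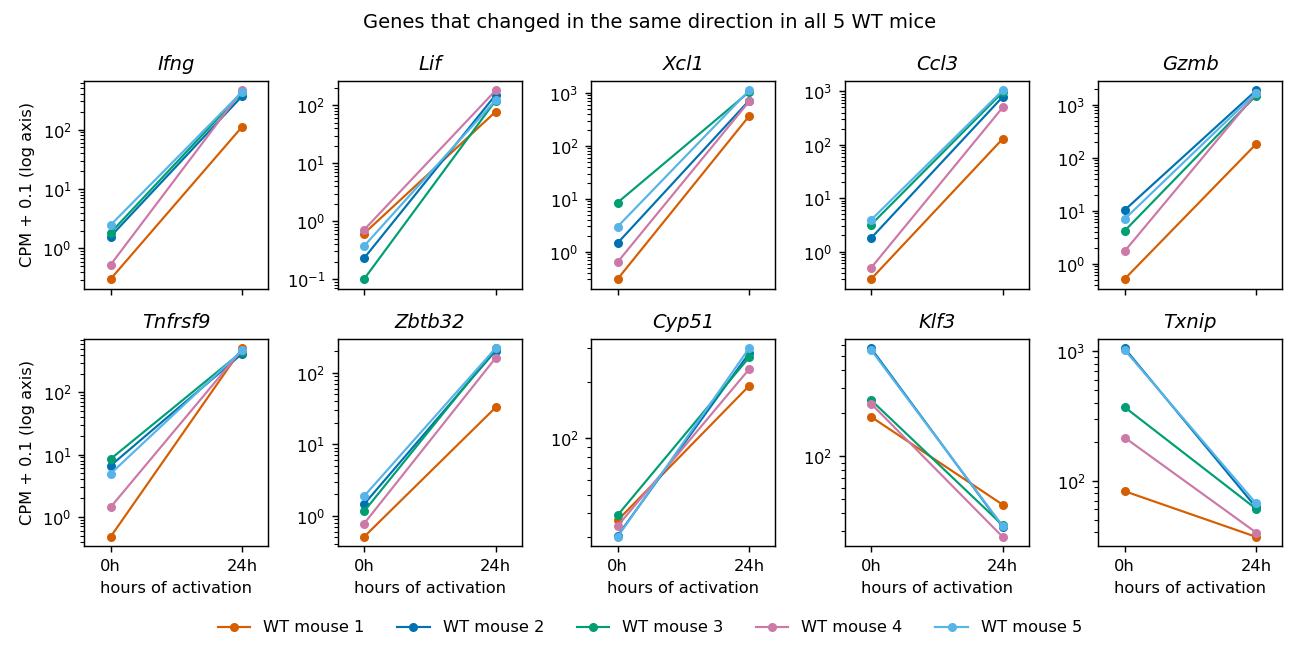
Level of 10 genes (CPM plus 0.1, log axis) at 0h and 24h, with 1 line per WT mouse. Each of the 8 genes that rose and the 2 that fell did so in all 5 mice, and mouse 1 ends lowest at 24h for Ifng, Lif, Xcl1, Ccl3, Gzmb, Zbtb32, Cyp51 and Txnip.

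Of 33 receptors that tune the T cell response 13 rose and 1 fell. Tnfrsf9 (4-1BB), a costimulatory receptor, was at 0.376, 6.53, 8.38, 1.32 and 4.82 CPM at 0h and at 512, 419, 453, 485 and 475 CPM at 24h. Levels that differed between the mice at 0h had come to within a narrow range at 24h, and the change was 7.19 (SE 0.908, edgeR adjusted p = 0.00867). Cd200, a ligand that restrains myeloid cells, was at 2.46, 6.92, 4.91, 2.79 and 6.41 CPM and then at 116, 239, 294, 210.1 and 296 CPM, a change of 5.58 (SE 0.287, edgeR adjusted p = 0.000876). The costimulatory receptor Icos rose by 2.4, Tnfrsf4 (OX40) by 3.82, Slamf1 by 3.10 and Cd44, the hyaluronan receptor of activated and memory cells, by 2.77.

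Inhibitory receptors were among them. Pdcd1 (PD-1) was at 32.1, 2.2, 5.59, 24.8 and 2.53 CPM at 0h and at 399, 114, 166, 202 and 163 CPM at 24h, highest in mice 1 and 4 at both times. The change was 4.56 (SE 0.546, edgeR adjusted p = 0.00713). Ctla4 rose by 4.73, Lag3 by 4.77 and Tigit by 6.19. The 1 gene that fell was Slamf6, which marks stem-like T cells, from 277, 263, 326, 247 and 288 to 197, 77.4, 75.8, 73.5 and 77.4 CPM, a change of -1.70 (SE 0.319, edgeR adjusted p = 0.0295). Mouse 1 kept the highest level at 24h. Cd69, a marker of the first hours of activation, stood at 4.88, 99.3, 86.9, 20.4 and 112 CPM at 0h and 210.2, 209.5, 202, 182 and 217 CPM at 24h. It was higher in all 5 mice, by 2.11 with 5 mice (edgeR adjusted p = 0.125, not passing) and by 0.95 without mice 1 and 4 (edgeR adjusted p = 0.0328).

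The list gave 15, 10, 10, 8 and 9 genes that rose when mouse 1, 2, 3, 4 or 5 was left out. Without mice 1 and 4 it gave 15 that rose and 5 that fell. The call of Slamf6 was lost without mouse 2, 3, 4 or 5 (changes of -1.99 to -1.52), those of Cd44 without mouse 4 or 5 (2.54 to 3.07) and Tigit without mouse 3 or 4 (5.66 to 7.09). The list's median change was 1.84 with 5 mice and 1.15 without mice 1 and 4, and 2.80, 1.08, 2.15, 2.53 and 1.38 in mice 1 to 5.

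Of 41 transcription factors of effector or naive fate 13 rose and 4 fell, and 14 rose and 13 fell without mice 1 and 4. Zbtb32, a repressor induced by activation, was at 0.41, 1.36, 1.06, 0.68 and 1.79 CPM at 0h and at 32.8, 204, 220.1, 162 and 221 CPM at 24h, a change of 7.13 (SE 0.348, edgeR adjusted p = 0.000876). Irf8, a partner of effector differentiation factors, was at 18.2, 10.1, 11.1, 15.9 and 7.23 CPM and then at 497, 893, 894, 866 and 847 CPM, a change of 5.96 (SE 0.414, edgeR adjusted p = 0.00136). In both, mouse 1 was lowest at 24h. Irf4, which scales with the strength of the receptor signal, rose by 5.47, Tbx21 (T-bet), a driver of Ifng, by 3.76, Bhlhe40 by 5.28 and Batf3 by 6.52.

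Nr4a1, an orphan receptor switched on by T cell receptor signals, was at 47.9, 29.9, 18.5, 40.1 and 26.3 CPM at 0h and at 946, 303, 265, 469 and 276 CPM at 24h. Here mouse 1 was highest at 24h and mouse 4 next, and the change was 3.60 (SE 0.274, edgeR adjusted p = 0.00136). Nr4a3 rose by 5.97 and Egr2, another early factor of that signal, by 4.72. Myc, which drives cell growth, stood at 388, 152, 52.3, 331 and 155 CPM at 0h and 453, 749, 643, 629 and 658 CPM at 24h. It was higher at 24h in each mouse, by 1.74 with 5 mice (edgeR adjusted p = 0.0817, not passing) and by 2.53 without mice 1 and 4 (edgeR adjusted p = 0.0226).

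The 4 that fell were Tcf7, Lef1, Klf3 and Runx1. Tcf7 (TCF-1), a factor of naive and stem-like T cells, was at 3302, 2055, 1732, 2809 and 1829 CPM at 0h and at 1068, 430.2, 338, 451 and 324 CPM at 24h, a change of -2.36 (SE 0.313, edgeR adjusted p = 0.00991). Lef1, its relative, was at 1298, 687, 821, 1112 and 612 CPM and then at 789.8, 136, 118, 252 and 109 CPM, a change of -2.20 (SE 0.399, edgeR adjusted p = 0.0269). Both were highest in mouse 1 at both times, and for Lef1 the 24h level of mouse 1 exceeded the 0h levels of mice 2 and 5. Klf3 fell by 3.34 and Runx1 by 1.75. Leaving out mouse 1, 2, 3, 4 or 5 gave 15, 9, 10, 9 and 9 factors that rose and 10, 1, 3, 1 and 1 that fell. Nr4a3 and Lef1 lost their calls without mouse 2, 3, 4 or 5 (5.24 to 6.55 and -2.56 to -1.97) and Tcf7 and Runx1 without mouse 2, 4 or 5 (-2.55 to -2.26 and -1.89 to -1.57).

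Naive state and quiescence genes had a median change of -2.10, and 9 of 28 fell and 0 rose. Txnip, which limits glucose uptake, was at 82.8, 1058, 371, 216 and 1027 CPM at 0h and then at 36.6, 62, 60.4, 39.6 and 66.5 CPM, a change of -2.96 (SE 0.528, edgeR adjusted p = 0.0259) and of -3.69 without mice 1 and 4 (SE 0.415, edgeR adjusted p = 0.0135). No 24h library reached a 0h library, and mouse 1 was lowest at both times. Tsc22d3 (GILZ), a glucocorticoid-induced factor of resting cells, was at 17.5, 268, 624, 52.6 and 257 CPM and then at 9.2, 5.52, 4.59, 5.1 and 5.88 CPM, with mouse 1 lowest at 0h and highest at 24h. It fell by 4.74.

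Igfbp4 fell by 2.26, and Cdkn1b (p27), the inhibitor that keeps resting cells out of the cell cycle, by 2.00. Receptors of recirculation and survival did not pass with 5 mice and fell without mice 1 and 4. S1pr1, which lets T cells leave lymphoid organs, stood at 12.1, 737, 368, 122 and 712 CPM at 0h and 16.7, 10.4, 8.88, 6.67 and 9.64 CPM at 24h, with changes of -4.84 with 5 mice (edgeR adjusted p = 0.0586) and -6.04 without mice 1 and 4 (edgeR adjusted p = 0.00891). Il7r, the receptor of the survival factor interleukin-7, stood at 35.1, 674, 399, 141 and 726 CPM and 47.6, 22.6, 18.7, 25.7 and 18.8 CPM, with changes of -3.67 (edgeR adjusted p = 0.0765) and -4.99 (edgeR adjusted p = 0.00891). Both were low in mouse 1 at 0h already, and in that mouse alone their 24h level was the higher one.

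Per mouse the median change of the naive list was 0.22, -2.47, -2.71, -1.61 and -2.50, above 0 in mouse 1 and below 0 in the other 4. In all 5 mice 11 of the genes were lower at 24h. The 28 genes had summed levels of 7038, 13729, 14057, 7518 and 13374 CPM before and 4719.8, 3279, 3131, 3098 and 3158 CPM after culture. Leaving out mouse 1, 2, 3, 4 or 5 gave 19, 1, 2, 1 and 1 genes that fell, and leaving out mice 1 and 4 gave 19. Without mouse 2, 3, 4 or 5, Txnip (-3.39 to -2.62), Tsc22d3 (-5.52 to -4.0), Igfbp4 (-2.63 to -1.92) and Cdkn1b (-2.40 to -1.74) lost their calls but not their direction.

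Among 25 genes of the T cell receptor complex and its first signalling steps 2 fell and 0 rose. Cd3e, a chain of the complex, was at 498, 715, 797, 535 and 683 CPM at 0h and at 350.5, 266, 298, 266 and 279 CPM at 24h, a change of -1.22 (SE 0.275, edgeR adjusted p = 0.0471). Themis, an adaptor of this pathway that thymocytes need, fell by 1.39. Without mice 1 and 4 the change of Themis was -1.34 and did not pass (edgeR adjusted p = 0.0527). Both calls were lost without mouse 2, 4 or 5, and that of Cd3e also without mouse 3 (-1.40 to -1.09 for Cd3e and -1.55 to -1.23 for Themis). Cd8a, a chain of the co-receptor on which the cells were picked, was at 288, 1679.9, 2804, 477 and 1658 CPM at 0h and 212, 740.3, 695, 456 and 692 CPM at 24h. Lower at 24h in all 5 mice, it had a change of -1.08 with 5 mice (edgeR adjusted p = 0.12) and fell by 1.61 without mice 1 and 4 (edgeR adjusted p = 0.033), where 12 of the 25 genes fell.

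Receptors for cytokines and chemokines moved in both directions, 2 of 29 up and 3 down with 5 mice, and 6 up and 12 down without mice 1 and 4. Their median change was -0.08 and turned to 0.04 when libraries were scaled by their totals. Il12rb1, part of the receptor for interleukin-12, was at 41, 14.7, 8.96, 33.4 and 14.3 CPM at 0h and at 152, 218, 209, 197 and 208 CPM at 24h, a change of 3.27 (SE 0.437, edgeR adjusted p = 0.0105). Cxcr4, the receptor for CXCL12, was at 214, 60.5, 73.4, 186 and 74.7 CPM and then at 102, 2.61, 2.58, 28.7 and 2.87 CPM, a change of -3.72 (SE 0.719, edgeR adjusted p = 0.0325), with mice 1 and 4 highest at both times. Il6ra fell by 3.23 and Il18r1 by 2.20.

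Ccr8, the receptor for CCL1, was at 0, 0.291, 0, 0.0358 and 0.0778 CPM and then at 47.6, 2.71, 3.59, 30.3 and 2.96 CPM, and it rose by 6.99 (edgeR adjusted p = 0.0398). Its 24h level was high in mice 1 and 4 and low in the others. Il2ra (CD25), the high-affinity chain of the interleukin-2 receptor, stood at 234, 1.71, 5.88, 171 and 4.24 CPM at 0h and 399, 843, 822, 718 and 805 CPM at 24h. The 24h libraries all lay above the 0h libraries, yet the change of 5.60 (SE 1.76) did not pass with 5 mice (edgeR adjusted p = 0.0955), and without mice 1 and 4 the gene rose by 7.73 (SE 0.585, edgeR adjusted p = 0.00971). Fits without 1 mouse called 6, 2, 2, 1 and 1 receptors higher and 9, 0, 0, 0 and 0 lower for mice 1 to 5. Without mouse 2, 3, 4 or 5, Cxcr4 (-4.32 to -3.31), Il6ra (-3.80 to -2.83) and Il18r1 (-2.51 to -1.95) lost their calls, as did Ccr8 without mouse 3, 4 or 5 (5.72 to 8.76).

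**Figure D3:**
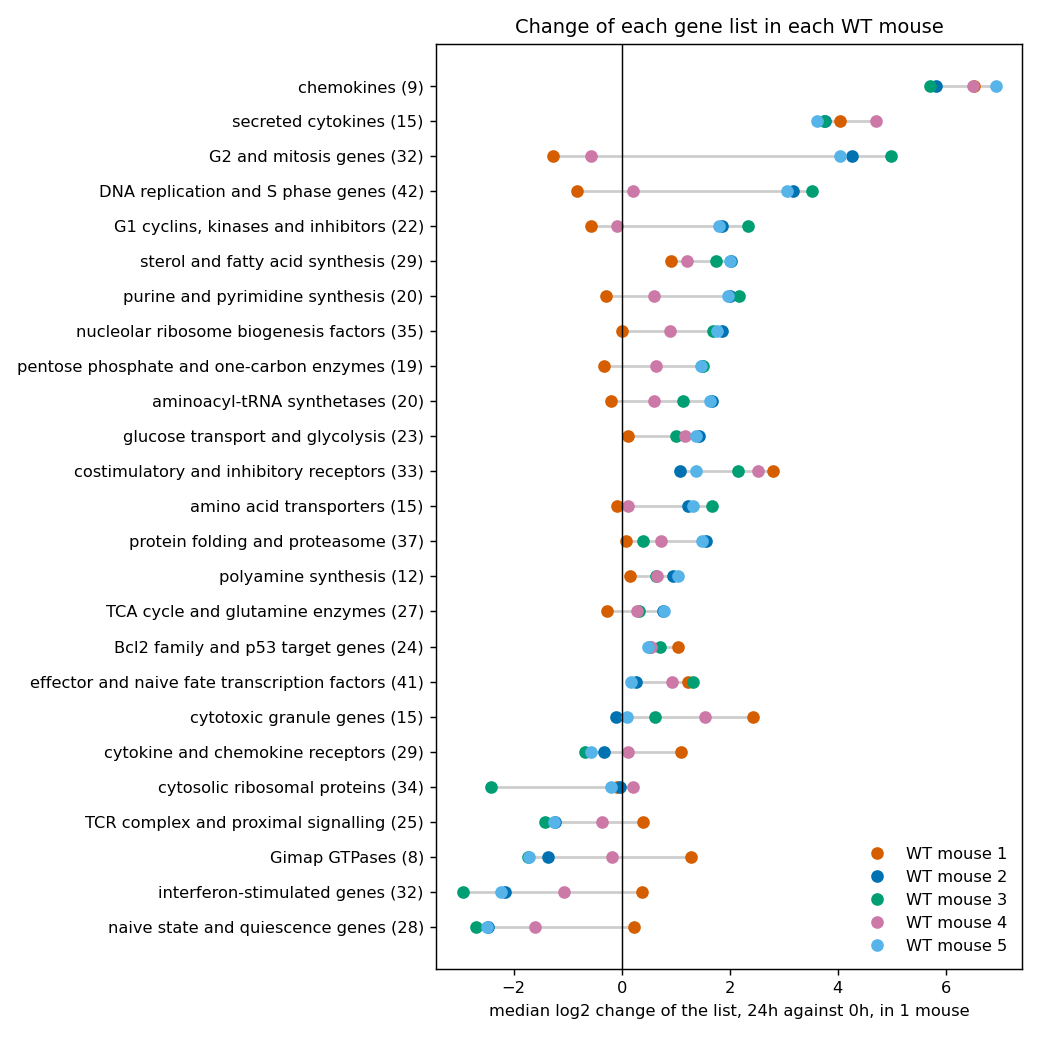
Median log2 change of each gene list within each WT mouse (x axis), with the number of tested genes in brackets and 1 point per mouse. The points of mice 1 and 4 lie below those of mice 2, 3 and 5 for the G2 and mitosis genes (-1.26 and -0.56 against 4.05 to 4.98) and near them for the chemokines.

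The cell cycle genes differed between mice. Mcm5, a subunit of the replication helicase, stood at 806, 92.1, 66.8, 632 and 79 CPM at 0h and 490.3, 951, 949, 928 and 1010.1 CPM at 24h. In mice 2, 3 and 5 the level at 24h was far above that at 0h, in mouse 4 it was moderately higher, and in mouse 1 it was lower. The change was 2.17 with 5 mice (SE 0.851, edgeR adjusted p = 0.142) and 3.49 without mice 1 and 4 (SE 0.234, edgeR adjusted p = 0.00912). Rrm2, a subunit of the enzyme that makes deoxynucleotides, stood at 553, 13.7, 19.8, 451 and 14.5 CPM and 270.4, 563, 585, 517 and 601 CPM, with changes of 3.21 (edgeR adjusted p = 0.182) and 5.08 (edgeR adjusted p = 0.00891). Orc1, of the origin recognition complex, had changes of 3.46 and 5.24, and Cdc6, which loads the helicase, of 2.88 and 4.71.

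Cdk1, the kinase that starts mitosis, stood at 253, 5.59, 7.71, 203 and 7.85 CPM at 0h and 129, 228, 243, 249 and 250.3 CPM at 24h, with changes of 3.15 (SE 1.37, edgeR adjusted p = 0.173) and 4.98 without mice 1 and 4 (SE 0.249, edgeR adjusted p = 0.00891). Mki67, the proliferation antigen Ki-67, stood at 1563, 49.3, 29.8, 1284 and 56.1 CPM and 537, 876, 923, 509 and 752 CPM and was lower at 24h in mice 1 and 4. Its changes were 2.23 (edgeR adjusted p = 0.332) and 4.15 (edgeR adjusted p = 0.0104). The summed levels of the 42 replication genes were 13126, 2131, 2379, 10663 and 2087 CPM before and 7387, 14635, 14365, 12388 and 14786 CPM after culture, and those of the 32 genes of G2 and mitosis were 10039.9, 374, 293, 8101 and 418 CPM and 4102, 5971, 6314, 5283 and 5782 CPM.

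The median change per mouse was -0.82, 3.16, 3.51, 0.21 and 3.07 for replication and -1.26, 4.26, 4.98, -0.56 and 4.05 for G2 and mitosis. With all 5 mice 11 replication genes and none of G2 and mitosis had an unadjusted p under 0.05 in edgeR, DESeq2 called 31 and 25 of them higher and limma-voom called 0 and 0. Of all 11874 tested genes 3707 had such a p, a share that the 11 of 42 and 0 of 32 did not exceed. DESeq2 called 1859 of all genes higher and limma-voom 627. For replication and for G2 and mitosis the medians over all mice were 1.85 and 2.28. Without mice 1 and 4 they were 3.12 and 4.25, and 36 of the 42 and 32 of the 32 genes rose, counts that follow in part from leaving out the mice whose 0h levels of these genes were high. Leaving out mouse 1 alone gave 21 replication genes and 1 gene of G2 and mitosis that rose, and leaving out mouse 2, 3, 4 or 5 alone gave 0 of either.

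**Figure D4:**
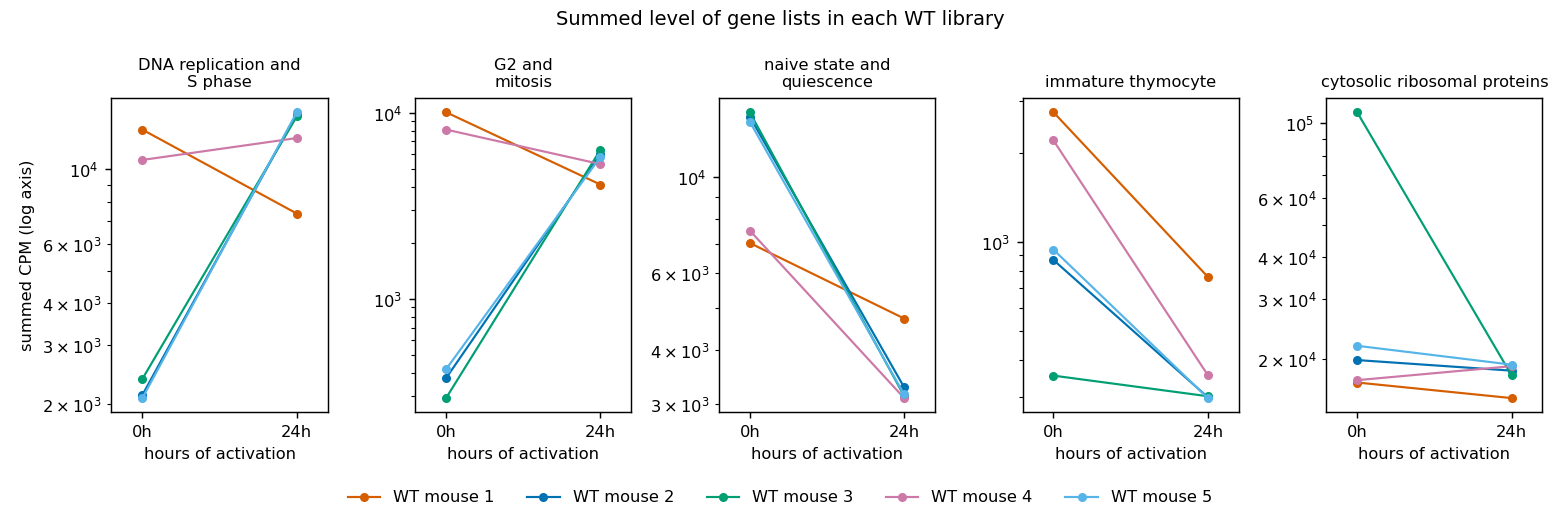
Summed level of 5 gene lists (CPM, log axis) at 0h and 24h, with 1 line per WT mouse. In mice 1 and 4 the G2 and mitosis genes start at 10039.9 and 8101 CPM, above every 24h library, and the lines of mice 2, 3 and 5 start at 293 to 418 CPM. The ribosomal protein line of mouse 3 starts at 107721 CPM.

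Promoters of cell cycle genes are shown because members of each list moved together between mice. E2F factors act on replication genes, and the CCAAT box is common before genes of G2 and mitosis. Capitals mark TTTCCCGC or TTTGGCGC in the Mcm5, Mcm6 and Cdc6 stretches and CCAAT in those of Ccnb1 and Cdk1, on either strand. The sequences are RefSeq's for GRCm38.p6, Mcm5 at chr8:75109310-75109417 (plus strand), Mcm6 at chr1:128359706-128359865 (minus strand), Cdc6 at chr11:98907963-98908070 (plus strand), Ccnb1 at chr13:100786499-100786635 (minus strand) and Cdk1 at chr10:69352913-69353112 (minus strand).
Mcm5: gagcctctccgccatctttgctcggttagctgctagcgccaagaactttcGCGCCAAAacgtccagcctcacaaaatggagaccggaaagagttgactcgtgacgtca
Mcm6: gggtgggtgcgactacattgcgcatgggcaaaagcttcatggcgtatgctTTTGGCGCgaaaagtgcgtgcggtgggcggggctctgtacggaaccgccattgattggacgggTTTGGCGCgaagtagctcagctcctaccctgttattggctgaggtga
Cdc6: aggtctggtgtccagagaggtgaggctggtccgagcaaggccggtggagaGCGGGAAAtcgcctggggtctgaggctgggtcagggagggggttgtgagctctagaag
Ccnb1: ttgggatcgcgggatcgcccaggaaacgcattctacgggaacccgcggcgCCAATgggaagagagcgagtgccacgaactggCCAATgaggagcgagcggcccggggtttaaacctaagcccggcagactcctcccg
Cdk1: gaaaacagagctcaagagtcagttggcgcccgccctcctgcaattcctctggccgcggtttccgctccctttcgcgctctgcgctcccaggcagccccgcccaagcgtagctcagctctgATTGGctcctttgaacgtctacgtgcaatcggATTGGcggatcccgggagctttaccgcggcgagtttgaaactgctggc
The E2F letters stood within 250 bases before the start of 6 of 34 replication genes with an entry (17.6%), against 1.51% of 27025 genes. CCAAT stood there in 21 of 26 genes of G2 and mitosis (80.8%), against 37.5% of all genes. As for Il2, a match describes the letters and not a bound site.

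Regulators of entry into the cycle are read apart from the machinery. Cdkn1a (p21), an inhibitor of cyclin-dependent kinases, was at 5.7, 0.259, 0.193, 4.37 and 0.428 CPM at 0h and at 29.1, 24.8, 37.3, 33.9 and 31.1 CPM at 24h. Mice 1 and 4 were above the others at 0h and all 5 mice were alike at 24h. It rose by 4.84 (SE 0.93, edgeR adjusted p = 0.0319) and by 6.51 without mice 1 and 4. Ccnd1 (cyclin D1), at 110.0, 1.39, 2.99, 89.5 and 1.09 CPM and then at 27.4, 0.508, 0.569, 12.5 and 0.486 CPM, fell by 2.08 (edgeR adjusted p = 0.017) and was above 10 CPM only in mice 1 and 4. Without these mice its change was -1.79 and did not pass (edgeR adjusted p = 0.0553). Ccne2 (cyclin E2) and the factor E2f1 had changes of 2.91 and 2.06 that did not pass (edgeR adjusted p = 0.183 and 0.156), and rose by 4.76 and 3.45 without mice 1 and 4.

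With 5 mice 1 of 22 genes of this list rose and 2 fell, and without mice 1 and 4, 14 rose and 2 fell, the latter Cdkn1b and Cdkn2d. Beside the 3.71% of all tested genes that rose with 5 mice, the single rise does not set this list apart. Without mice 1 and 4, 15.5% of all genes fell, a share that the 2 that fell did not exceed. The call of Cdkn1a was lost without mouse 2, 3, 4 or 5 (4.32 to 5.55) and that of Ccnd1 without mouse 2 or 4 (-2.22 to -1.85). The counts without mouse 1, 2, 3, 4 or 5 were 7, 0, 0, 0 and 0 that rose and 3, 0, 1, 0 and 1 that fell.

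In sterol and fatty acid synthesis 14 of 29 genes rose and 1 fell with 5 mice, with a median of 1.48. Cyp51, lanosterol demethylase, was at 36.6, 30.3, 39, 34.2 and 29.9 CPM at 0h and at 190.0, 283, 269, 233 and 301 CPM at 24h. The 0h levels were alike in all 5 mice, and the change was 2.81 (SE 0.235, edgeR adjusted p = 0.00193). Hmgcs1, which starts the pathway, was at 63.1, 71.9, 66.1, 63 and 69.4 CPM and then at 232, 338, 303, 232 and 311 CPM, a change of 1.98 (SE 0.199, edgeR adjusted p = 0.00374). Sqle, squalene epoxidase, rose by 1.96 and Insig1, the sensor that restrains the pathway, by 2.41.

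Acss2, which makes acetyl-CoA from acetate, was the gene that fell, from 24, 97.5, 72.4, 37.6 and 106 to 12.9, 18.3, 12.3, 10.1 and 14.5 CPM, by 2.23 (edgeR adjusted p = 0.0197). The list's median change was 0.92, 2.02, 1.74, 1.21 and 2.00 in mice 1 to 5 and 1.86 without mice 1 and 4, where 17 rose and 1 fell. Without mouse 1, 2, 3, 4 or 5 alone 19, 4, 14, 4 and 4 rose. Sqle (1.77 to 2.25) and Acss2 (-2.55 to -1.99) lost their calls without mouse 2, 3, 4 or 5.

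Of 23 genes of glucose transport and glycolysis 4 rose and 0 fell, and 11 rose and 2 fell without mice 1 and 4. Slc2a1 (GLUT1), the glucose carrier of activated T cells, was at 15.4, 48, 35.4, 19.3 and 46.3 CPM at 0h and at 42.9, 114, 122, 96.1 and 120.5 CPM at 24h. It was higher at 24h in each mouse although the 24h level of mouse 1 was under the 0h levels of mice 2 and 5, and it rose by 1.55 (SE 0.244, edgeR adjusted p = 0.0173). Slc16a3, a lactate exporter, rose by 2.87, and the enzymes Eno1 and Aldoa by 1.26 and 1.30. Hk2, the inducible hexokinase, stood at 51.5, 3.49, 0.771, 43.5 and 4.04 CPM and 78.2, 223, 197, 170.2 and 187 CPM, with changes of 4.40 (edgeR adjusted p = 0.0838) and 6.24 without mice 1 and 4 (edgeR adjusted p = 0.0122).

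Fits without mouse 1, 2, 3, 4 or 5 called 12, 1, 4, 0 and 0 glycolysis genes higher. Slc2a1 (1.37 to 1.66), Eno1 (1.18 to 1.35) and Aldoa (1.22 to 1.45) lost their calls without mouse 2, 4 or 5 and Slc16a3 (2.62 to 3.22) without mouse 4 or 5. Of 27 genes of the tricarboxylic acid cycle and glutamine use 1 rose and 0 fell, near the shares of all tested genes (3.71% and 3.66%). It was Got1, an aspartate aminotransferase, by 1.67 (edgeR adjusted p = 0.0362), a call lost without mouse 2, 3, 4 or 5 (1.51 to 1.96).

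Enzymes that feed nucleotide synthesis differed in the same way. None of 19 genes of the pentose phosphate and one-carbon routes and none of 20 of purine and pyrimidine synthesis passed with 5 mice in edgeR (12 and 13 at an unadjusted p under 0.05, 12 and 14 called by DESeq2, 0 and 3 by limma-voom), and 10 and 14 rose without mice 1 and 4, with 0 and 2 that fell. Of all 11874 tested genes 3707 had an unadjusted p under 0.05 with 5 mice, and DESeq2 called 3623 and limma-voom 1410. Shmt1, which moves 1 carbon from serine to folate, stood at 186, 19.9, 26.3, 146 and 21.8 CPM at 0h and 156, 359, 355, 354 and 384 CPM at 24h, with changes of 2.64 (edgeR adjusted p = 0.0899) and 3.89 (edgeR adjusted p = 0.00912). Mthfd2, a mitochondrial enzyme of the folate cycle, had changes of 2.18 and 3.23, Psat1, of serine synthesis, of 2.13 and 3.38, and Cad, which starts pyrimidine synthesis, of 1.70 and 2.65. All 4 were lower at 24h than at 0h in mouse 1. Without mouse 1 alone 11 and 13 genes of these lists rose.

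Amino acid uptake and growth lists gave single calls with 5 mice. Of 15 amino acid transporters 1 rose and 1 fell, and of 12 polyamine genes 1 rose and 0 fell. Beside 3.71% and 3.66% of all tested genes, such single calls do not set these lists apart. Slc7a1, the carrier of arginine and other cationic amino acids, was at 243, 101, 46, 199 and 86.3 CPM at 0h and at 457, 419.8, 423, 392 and 396 CPM at 24h and rose by 1.78 (SE 0.38, edgeR adjusted p = 0.0423). Slc38a5, a glutamine carrier also found in red cell precursors, was at 25.1, 1.78, 3.56, 25.9 and 3.77 CPM and then at 0.142, 0, 0, 0.0477 and 0 CPM and fell by 8.32 (edgeR adjusted p = 0.00136). Slc7a5, the large neutral carrier, had changes of 1.83 (edgeR adjusted p = 0.0916) and 2.78 without mice 1 and 4 (edgeR adjusted p = 0.00937). Odc1, which makes putrescine and so starts polyamine synthesis, was at 95.8, 18.6, 18.8, 86.4 and 19.3 CPM and then at 146, 321, 333, 319.5 and 341 CPM and rose by 2.95 (SE 0.652, edgeR adjusted p = 0.0457). The calls of Slc7a1 and Odc1 were lost without mouse 2, 3, 4 or 5 (1.50 to 1.99 and 2.64 to 3.49).

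Of 35 nucleolar factors of ribosome biogenesis 3 rose with 5 mice, 27 without mice 1 and 4 and 30 without mouse 1 alone, with 0 that fell in each, and without mouse 2, 3, 4 or 5 alone 0 rose. Noc4l was at 144, 51.5, 73.2, 123 and 48.4 CPM at 0h and at 193, 308, 310.2, 329.9 and 322 CPM at 24h and rose by 1.77 (edgeR adjusted p = 0.0417), and Bysl rose by 1.43. Ncl (nucleolin) stood at 2334, 716, 1434, 2081 and 797 CPM and 2312, 5368, 5268, 4449 and 5295 CPM, with changes of 1.65 (edgeR adjusted p = 0.0955) and 2.38 (edgeR adjusted p = 0.0229). Mouse 1 was level in Ncl while the other 4 went up. Of 20 aminoacyl-tRNA synthetases 0 passed with 5 mice in edgeR (13 at an unadjusted p under 0.05, 12 by DESeq2, 0 by limma-voom) and 12 rose without mice 1 and 4, among them Mars at 1.25 and 1.86. Of all 11874 tested genes 3707 had an unadjusted p under 0.05 with 5 mice, and DESeq2 called 3623 and limma-voom 1410.

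The 34 ribosomal proteins had a median of -0.55 with 5 mice, of -0.02 without mouse 3 and of -1.0 without mice 1 and 4, and 0 passed in these edgeR fits. With 5 mice 1 had an unadjusted p under 0.05, DESeq2 called 1 and limma-voom 0. Over all 11874 tested genes these counts were 3707, 3623 and 1410. Without mice 1, 3 and 4, 6 rose and 19 fell, in a fit on 2 mice that called 42.3% of all genes higher and 42.5% lower.

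Of 37 genes of protein folding and the proteasome 1 rose and 2 fell. These counts are near the shares of all tested genes (3.71% and 3.66%) and do not set the list apart. Xbp1, a factor of the endoplasmic reticulum stress response, was at 58, 56.4, 64.6, 55.3 and 55.5 CPM at 0h and at 98.9, 139.5, 118, 141 and 131 CPM at 24h and rose by 1.02 (edgeR adjusted p = 0.0366), a call lost without mouse 2, 4 or 5 (0.95 to 1.13). Hspa1b, an inducible heat shock protein, was at 8.71, 15.9, 87.7, 11.5 and 13.5 CPM and then at 0.427, 0.541, 0.875, 0.429 and 1.15 CPM and fell by 4.89 (edgeR adjusted p = 0.00548). Its 0h level was highest in mouse 3. Hspa1a fell by 5.74. The 2 genes are nearly identical, so the split of reads between them is uncertain. Hspd1, the mitochondrial chaperonin, had changes of 2.11 (edgeR adjusted p = 0.0791) and 3.07 without mice 1 and 4 (edgeR adjusted p = 0.00996), where 13 of the list, proteasome genes among them, rose and 2 fell.

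Interferon-stimulated genes had a median change of -1.70, with 5 of 32 that fell and 2 that rose. Oasl1, which senses viral RNA, was at 6.69, 15.7, 34.4, 10.1 and 25.2 CPM at 0h and at 0.948, 0.846, 0.744, 0.524 and 1.02 CPM at 24h, a change of -4.38 (SE 0.494, edgeR adjusted p = 0.00601). Oas2, a synthetase of the same antiviral pathway, was at 8.57, 57.6, 61.7, 23.8 and 99.6 CPM and then at 2.23, 0.914, 0.70, 1.33 and 1.28 CPM, a change of -5.16 (SE 0.862, edgeR adjusted p = 0.0213). Both were lowest in mouse 1 at 0h and at most 2.23 CPM in all mice at 24h. Ifit3 stood at 0.888, 23.1, 76.6, 5.83 and 32 CPM and 1.33, 1.12, 1.09, 1.19 and 1.11 CPM, with changes of -3.73 (edgeR adjusted p = 0.0881) and -5.23 without mice 1 and 4 (edgeR adjusted p = 0.0118), where 23 fell and 2 rose.

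The 2 that rose are GTPases that interferon gamma is known to induce. Gbp2 was at 10.5, 132, 99.9, 28.1 and 130.4 CPM at 0h and at 609, 787, 726, 586 and 810.4 CPM at 24h, a change of 3.51 (SE 0.625, edgeR adjusted p = 0.0259). Iigp1 was at 0.82, 8.11, 10.0, 2.18 and 15.9 CPM and then at 198, 120.0, 117, 184 and 142 CPM, a change of 4.73 (SE 0.887, edgeR adjusted p = 0.0295). Fits without mouse 1, 2, 3, 4 or 5 called 21, 1, 1, 1 and 1 of the list lower and 2, 0, 0, 0 and 0 higher. Oas2 (-5.84 to -4.69), Gbp2 (2.98 to 3.84) and Iigp1 (4.04 to 5.31) lost their calls without mouse 2, 3, 4 or 5.

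Promoters of 3 interferon-stimulated genes are shown, since 23 genes of this list fell together without mice 1 and 4. Capitals mark the core of the interferon-stimulated response element on either strand, which is TTTC, then NN, then TTTC, with overlapping matches joined. The sequences are RefSeq's for GRCm38.p6, Isg15 at chr4:156200825-156200946 (minus strand), Ifit3 at chr19:34583323-34583466 (plus strand) and Rsad2 at chr12:26456513-26456622 (minus strand).
Isg15: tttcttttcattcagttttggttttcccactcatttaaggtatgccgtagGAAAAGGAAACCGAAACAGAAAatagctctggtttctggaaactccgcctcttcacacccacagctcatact
Ifit3: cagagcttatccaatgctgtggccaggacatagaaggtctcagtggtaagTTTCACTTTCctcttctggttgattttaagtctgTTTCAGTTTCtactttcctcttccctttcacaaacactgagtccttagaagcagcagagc
Rsad2: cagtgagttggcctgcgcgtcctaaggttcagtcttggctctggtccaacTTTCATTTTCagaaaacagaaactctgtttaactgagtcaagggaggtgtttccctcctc
The letters stood in 11 of 21 interferon-stimulated genes with an entry (52.4%), against 3.46% of 27025 genes. Isg15, a ubiquitin-like protein, had a change of -2.32 without mice 1 and 4 that did not pass (edgeR adjusted p = 0.0532), and Rsad2 (viperin) fell there by 5.37 (edgeR adjusted p = 0.00891).

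None of the 8 Gimap GTPases, which support the survival of resting lymphocytes, passed with 5 mice in edgeR (1 at an unadjusted p under 0.05, 2 by DESeq2, 0 by limma-voom), and 8 of 8 fell without mice 1 and 4. The last count follows in part from leaving out the mice whose 0h levels of these genes were low. Of all 11874 tested genes 3707 had an unadjusted p under 0.05 with 5 mice, and DESeq2 called 3623 and limma-voom 1410. Gimap3 stood at 21.3, 1117, 1368, 199 and 1123 CPM at 0h and 50.6, 199, 191, 116 and 198 CPM at 24h, with changes of -1.68 (edgeR adjusted p = 0.168) and -2.74 (edgeR adjusted p = 0.0105). Mouse 1 began with the lowest level and was the only one to end higher.

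Among 24 genes of the Bcl2 family and of p53 targets 5 rose and 0 fell. Bcl2l1 (Bcl-xL), which protects activated T cells from death, was at 42.4, 15.2, 28.1, 32.3 and 14.6 CPM at 0h and at 142, 339.8, 345, 379.8 and 357 CPM at 24h, a change of 3.54 (SE 0.471, edgeR adjusted p = 0.0105). Bcl2a1b rose by 4.85 and Bcl2a1d by 5.02, near-identical copies whose reads may be split, and Gadd45b by 2.89. Bbc3 (PUMA), a death inducer, stood at 8.44, 38.3, 31.1, 15.7 and 40.5 CPM and 23.3, 7.99, 12.2, 10.5 and 9.73 CPM, with changes of -1.13 (edgeR adjusted p = 0.249) and -2.02 without mice 1 and 4 (edgeR adjusted p = 0.0177), where 7 rose and 5 fell. Fits without mouse 1, 2, 3, 4 or 5 called 5, 3, 3, 2 and 3 higher. Gadd45b lost its call without mouse 2, 3, 4 or 5 (2.45 to 3.41) and Bcl2l1 without mouse 4 (3.32 to 3.95 over these fits).

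Outside these lists the largest rises with 5 mice included Rgs16, which dampens signals of G protein-coupled receptors. It was at 0.102, 0.711, 0, 0.143 and 1.32 CPM at 0h and at 53.2, 229.7, 281, 195 and 260.1 CPM at 24h, a change of 9.01 (SE 0.799, edgeR adjusted p = 0.00257). Crabp2, a carrier of retinoic acid, rose by 8.42, the stress factor Atf3 by 8.14, Npas4, a factor best known from active neurons, by 7.67 and Nrn1 (neuritin) by 7.60. Without mice 1 and 4 the largest rises included Lipg, endothelial lipase, at 48.9, 0.0647, 0, 38.5 and 0 CPM at 0h and 26.4, 26.7, 29.9, 25.4 and 35.4 CPM at 24h. It rose in that fit (edgeR adjusted p = 0.0104), against nearly 0 counts at 0h, and had a change of 5.10 with 5 mice (edgeR adjusted p = 0.267). Bcat1, which breaks down branched-chain amino acids, stood at 86.5, 0.323, 2.89, 71.4 and 0.233 CPM and 103, 207, 223, 194 and 219 CPM, with changes of 5.48 with 5 mice (edgeR adjusted p = 0.142) and 8.24 without mice 1 and 4 (edgeR adjusted p = 0.0169).

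Several of the largest declines with 5 mice were in genes of the red cell lineage. Ermap, a surface protein of red cells, was at 137, 11.4, 8.19, 136 and 18.8 CPM at 0h and at 0.379, 0.0338, 0.0438, 0.286 and 0.177 CPM at 24h, a change of -8.11 (SE 0.43, edgeR adjusted p = 0.000946). Aqp1, a water channel of red cells, was at 191, 15.3, 9.15, 189 and 21.1 CPM and then at 1.66, 0.0677, 0, 1.1 and 0.0442 CPM, a change of -7.67 (SE 0.496, edgeR adjusted p = 0.00122). Klf1, the master factor of that lineage, was at 47.1, 3.69, 5.3, 51 and 7.78 CPM and then at 0.427, 0.169, 0.306, 1.05 and 0.31 CPM, a change of -5.22 (SE 0.487, edgeR adjusted p = 0.00296). All 3 were highest at 0h in mice 1 and 4. Add2 fell by 8.33, Car1 by 7.58 and the anion exchanger Slc4a1, which was too low to be tested without mice 1 and 4, by 5.99.

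The 10 erythroid and platelet markers, 9 of them detected in all 5 libraries at 0h and 3 in all 5 at 24h, had summed levels of 199, 18.4, 92.1, 160.0 and 15.1 CPM and then 33.8, 3.15, 3.11, 17.6 and 2.7 CPM. Klf1 is 1 of the 10, and the other 9 summed to 152, 14.7, 86.8, 109 and 7.35 CPM and then 33.4, 2.98, 2.8, 16.6 and 2.39 CPM. The sums hide 2 directions. The red cell members were lower at 24h in each mouse, but the platelet members Pf4, Ppbp and Itga2b were higher in mice 1 and 4. In mouse 1 these went from 1.16, 0.342 and 4.51 to 9.48, 5.55 and 13.8 CPM. In mice 2, 3 and 5 Itga2b was lower at 24h, and Pf4 and Ppbp were at most 0.84 CPM at both times. The part of the 9 other markers in the declines was not tested. Mpo, the peroxidase of neutrophil precursors, was at 66.2, 27.5, 33.7, 42.7 and 28.6 CPM at 0h and at 30.2, 0.203, 0.263, 1.0 and 0.0442 CPM at 24h and fell by 6.01 (edgeR adjusted p = 0.0402), with mouse 1 far above the others at 24h. The call was lost without mouse 2, 3, 4 or 5 (-6.96 to -5.37). It is 1 of 8 neutrophil markers, of which 6 were detected in all 5 libraries at 0h and 1 at 24h. The other 7 summed to 41.9, 12.7, 57.2, 19.1 and 8.05 CPM before culture and to 78, 0.169, 0.35, 4.15 and 0.0442 CPM after it, higher at 24h in mouse 1 and lower in the other 4. The part of these 7 in the decline of Mpo was not tested.

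Among genes of the B lineage, Igha, the constant region of immunoglobulin A, was at 105, 507, 2643, 478 and 1065 CPM at 0h and at 28.2, 16.4, 7.05, 27.7 and 23.2 CPM at 24h and fell by 5.01 (edgeR adjusted p = 0.0397), a call lost without mouse 2, 3, 4 or 5 (-5.75 to -4.23). The 11 B cell markers, each detected in all 5 libraries at 0h and 10 of them at 24h, had summed levels of 386, 3116, 3361, 895 and 2389 CPM and then 413, 567, 500.1, 462 and 512 CPM. Most of each sum was Ighm, the heavy chain of immunoglobulin M, and the other 10 summed to 11.6, 126, 258, 15.3 and 35.6 CPM and then 20.5, 28.3, 26.1, 13.1 and 10.7 CPM. The 5 plasma cell markers, all detected in each 0h library and Tnfrsf17 at 0 counts in all 5 at 24h, had summed levels of 311, 791, 8788, 489 and 611 CPM and then 155, 36.5, 48.3, 73.5 and 23.7 CPM. Ighg2b made up 8418 CPM of the 0h sum of mouse 3, and the other 4 summed to 244, 424, 370.2, 361 and 468 CPM and then 122, 22, 15.8, 60.6 and 19.1 CPM. Their part in the decline of Igha was not tested.

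Ggt1, gamma-glutamyltransferase, was at 1.09, 104, 504, 17.6 and 103 CPM at 0h and at 0.569, 1.02, 0.744, 0.524 and 0.84 CPM at 24h, from near 1 CPM in mouse 1 to over 500 CPM in mouse 3 at 0h. It fell by 6.22 (SE 1.37, edgeR adjusted p = 0.0457) and lost its call without mouse 2, 3, 4 or 5 (-7.14 to -5.32). Cd7, a surface protein of T and NK cells, had changes of -5.99 (edgeR adjusted p = 0.0578) and -7.33 without mice 1 and 4 (edgeR adjusted p = 0.00937), Slfn5 of -4.77 (edgeR adjusted p = 0.171) and -6.86 (edgeR adjusted p = 0.00891), and Ampd1, which deaminates AMP, of -5.86 (edgeR adjusted p = 0.0516) and -7.45 (edgeR adjusted p = 0.00928).

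The libraries between 0h and 24h show what the net change spans, as levels with no test, since each later time shares the 0h libraries. Nr4a1 had a median over the 5 mice of 29.9, 2373, 1252, 429.6 and 303 CPM at 0, 2, 6, 12 and 24 hours, so that its 24h level lay above that at 0h and below that at 2h. Il2 had medians of 0.0683, 1.95, 38.3, 22.4 and 25.8 CPM and Gzmb of 4.05, 5.34, 55, 546 and 1663 CPM at these times. At 6h Il2 was at 0.904 CPM in mouse 1 and at 38.3 to 44.7 CPM in mice 2, 3 and 5. Tcf7 had medians of 2055, 1239, 376, 409 and 430.2 CPM.

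**Figure D5:**
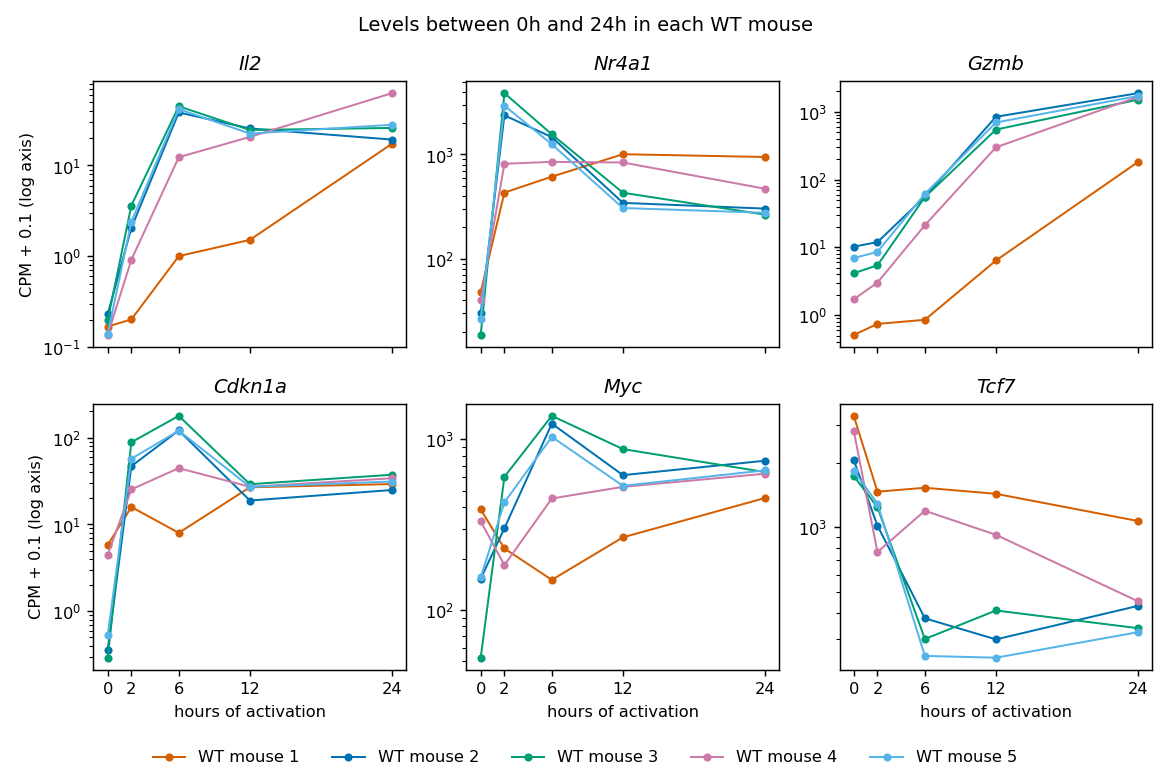
Level of 6 genes (CPM plus 0.1, log axis) by time in culture (0, 2, 6, 12 and 24 hours), with 1 line per WT mouse. In mouse 1 the lines of Il2 and Gzmb are lowest from 2h to 12h and come nearer to the others at 24h.

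Whether the net change differed between WT and KO was tested as the interaction of time and genotype over 20 libraries. Of 12599 genes 0 (0.0%) passed in edgeR, and 656 had an unadjusted p under 0.05. The smallest adjusted p was 0.39. Without WT mice 1 and 4 there were also 0, with 929 at an unadjusted p under 0.05, limma-voom called 0 and DESeq2 called 37, of which 34 had a change that was more positive in WT and 3 one that was more negative. In KO alone 4270 genes rose (35.7%) and 4415 fell (37.0%) of 11946. A count that differs between genotypes does not show that the changes differed. Side by side, the log2 changes in WT and KO were 8.41 and 8.40 for Il2, 8.45 and 7.44 for Gzmb, 2.81 and 3.26 for Cyp51, -2.36 and -2.27 for Tcf7 and 2.17 and 2.49 for Mcm5. The interaction estimates of these 5 genes (WT minus KO) ran from -0.47 to 0.86, each with an edgeR adjusted p of at least 0.88. The largest estimate among the interferon-induced genes named above was that of Iigp1, 3.45 (edgeR adjusted p = 0.884), with changes of 4.73 in WT and 1.24 in KO.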

How the data were processed

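Splenic CD8+ T cells of 5 WT mice at 0h and 24h of activation were compared, 10 libraries from a stranded mRNA kit with single-end reads of 50 nt, per the labels' protocols. The authors deposited raw counts per Ensembl gene, 1 column per library, with no normalization. Tools named in the submitters' processing notes are STAR 2.4, featureCounts 1.4.6 and CASAVA 1.8.2, with the build GRCm38. The annotation release, strand setting and handling of reads with several matches are not given in the sources used here, so genes that overlap in antisense, and near-identical copies, are uncertain. Of 21647 identifiers, 21583 were matched to symbols and 64 were not, and 0 were mitochondrially encoded. No replicate pair held identical counts (highest Spearman rho 0.982).

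From these counts edgeR 4.0.16 under R 4.3.3 fitted the 10 libraries with mouse as a block (TMM scaling, filterByExpr with a minimum count of 10 and total of 15, robust quasi-likelihood, 4 residual degrees of freedom, common dispersion 0.247). A gene was called at an adjusted p under 0.05 (Benjamini-Hochberg, over all tested genes). The pairing comes from the labels, which give the mouse of each library. Checked in the data were the libraries' deviations from their time's mean. They correlated by 0.10 to 0.364 within a mouse (median 0.299) and by -0.425 to 0.362 between mice (median -0.175). At 0h mice 2 and 4 correlated most with their own 24h library. Mouse 1 did so with mouse 4 (0.362, own 0.281), and mice 3 and 5 with mouse 2 (0.143, own 0.10, and 0.315, own 0.299). Deviations from a shared mean also pull the values between mice down, so the check cannot decide the pairing. Alternatives were DESeq2 1.42.0, limma-voom 3.58.1, other scalings, no filter, no block, all 50 libraries and leaving out mice. Without mice 1, 3 and 4, and without mice 1 and 4 with no block, were chosen after seeing the data. CPM use TMM factors over 50 libraries, and changes within 1 mouse are of log2 CPM with a prior count of 2. A fold against a group at 0 uses 3 counts over the group. The fit was tested on simulated data.

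The comparison, the 25 gene lists and the 11 marker lists were chosen with earlier results of these data known. The rule for named genes took the 12 largest changes per direction with at least 20 CPM, with all 5 mice and without mice 1 and 4, and the list members with the smallest p. The text names a subset of these, and some other list members, picked after their values were seen. Some genes and results, and a check of the genotype labels, are not reported here. Promoter letters and gene positions are RefSeq's for GRCm38.p6.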

Additional observations from a re-analysis of the deposited data

Results flagged for a closer look

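In groups of 5 values, a value far from the other 4 was sought by the gap to its neighbour over the whole range. Of 173 such groups 10 (5.78%) held one, where chance gives about 5%. Changes of single genes made up 145 of the groups, and 1 of these was flagged. The other flags were all among the fewer library measures and marker sums. The pooled share therefore does not say how those measures and sums stand against chance. Among per-mouse changes, Slamf6 changed by -0.49 on the log2 scale in mouse 1, against -2.10 to -1.75. The 0h library of mouse 3 had 23.8% of its counts in its 50 most abundant genes, against 8.83% to 11.1% in the others. In it the ribosomal protein genes summed to 107721 CPM, the plasma cell markers to 8788 CPM and the dendritic cell markers to 621 CPM, the last against 46.4 to 188 CPM. Of these sums 8418 CPM were Ighg2b and 502 CPM were Cd74. The other 4 plasma cell markers stood at 370.2 CPM there, within the range of the 5 mice (244 to 468 CPM), and the other 10 dendritic cell markers at 119 CPM, against 16.5 to 66.9 CPM.

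The 24h library of mouse 1 had 8.55% of its counts in its 50 most abundant genes, against 9.77% to 9.99%. Its immature thymocyte markers summed to 761 CPM, against 297 to 355 CPM in the other mice. Its CD4 and regulatory T cell markers summed to 83.4 CPM, against 12.4 to 25.6 CPM, its neutrophil markers to 108 CPM, against 0.088 to 5.15 CPM, and its stromal markers to 302 CPM, against 26.7 to 86.8 CPM. Cd4 itself was at 57.2, 1.12, 0.744, 13.7 and 0.442 CPM at 24h. Of the stromal sum of mouse 1, 152 CPM were Pecam1, 117 CPM Col1a2 and 31.4 CPM Pdgfrb. Pecam1 is also in the list of naive state genes. Col1a1 was at 1.99 CPM there, and Col3a1, Cdh5, Cxcl12 and Ccl21a had 0 counts, so the sum does not show stromal cells. The part of these values in the net change of mouse 1 was not tested.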

How the results depend on the processing

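The 875 genes called at 24h against 0h became 773 with library totals, 831 with median-ratio factors and 1030 with no low-count filter. They became 1410 with limma-voom, 3623 with DESeq2 and 5862 with all 50 libraries and no block. They became 3685 without mice 1 and 4, 10357 without mice 1, 3 and 4, and between 180 and 2651 when 1 mouse was left out. With no replicate block the same 10 libraries gave 2456 calls, 1039 higher and 1417 lower, and 5261 without mice 1 and 4 as well. The cause was not tested. Library totals moved the median change of all genes from 0.00 to 0.11, and that of the interaction from 0.01 to 0.15.

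For the difference between WT and KO the count of 0 became 37 with DESeq2 and 1 with no replicate block, and it was 0 in each fit that left out 1 mouse. Of 145 genes named from the tests, 97 were called with 5 mice, and 94 of these also without mice 1 and 4. Ccnd1 and Themis were not called there, and Slc4a1 was not tested. In all 5 fits that left out 1 mouse 53 of the 97 were called. In any alternative run 0 of the 145 changed direction. These genes were picked by size, by small p or after their values were seen, some for the same direction in each mouse. Their lack of reversals was thus largely set by that choice, and their share of kept calls does not stand for all 875. The fit without mouse 4 called 180 genes, so no more than 180 of the 875 can hold in all 5 fits. With no replicate block 5 of the 97 were no longer called, and 21 of the others were. The fits had 4 residual degrees of freedom, 2 without mice 1 and 4 and 1 without mice 1, 3 and 4, and 44 of the 97 calls were lost when 1 mouse was left out in turn.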
